A study of Mus musculus with 6 samples.

Results

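The genes described here are 7 secreted metalloproteases of the ADAMTS family, Adamts1, Adamts2, Adamts4, Adamts5, Adamts9, Adamts10 and Adamts12, together with Vcan, the gene of the proteoglycan versican. They were chosen by symbol, and all 8 were found among the 41388 Ensembl genes of the count files. RNA-seq counts came from 6 samples sorted from mammary tumors, which formed 2 groups of 3, the TICs and the non-CD24+CD90+ tumor cells. Both groups came from FVB/N-TgN(MMTVPyVT)634Mul/J females, a transgenic line in which the MMTV promoter drives polyoma middle T antigen in mammary epithelium, giving mammary carcinomas that spread to the lung. TICs (tumor initiating cells) were the CD24+CD90+CD45- cells. The other group held the CD45- cells that lacked CD24, CD90 or both markers, although the series' own design text describes it as lacking both. The mice were 12 weeks old by the study's account, each sample pooled 4 cell sorts from separate mice, and 120 ng of RNA entered each library.

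ADAMTS proteases carry a zinc-dependent catalytic domain followed by thrombospondin repeats, which bind them to the extracellular matrix. Adamts2 encodes a procollagen N-proteinase, which trims the amino-terminal propeptide so that fibrillar collagen can assemble. Adamts1, Adamts4, Adamts5 and Adamts9 encode proteases that cut hyalectans, the family of versican and aggrecan, and Adamts4 and Adamts5 are also called aggrecanases. Versican is a large chondroitin sulfate proteoglycan that binds hyaluronan in provisional and tumor matrix.

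The catalytic site is the feature that the 7 proteases share. The codons of the zinc-binding motif were read from the longest complete coding transcript of each gene in GENCODE M21 (GRCm38), with 5 codons on either side. The motif was present in 1 of 2 complete coding transcripts of Adamts9 and in 1 of 3 of Adamts10. In the other ADAMTS genes described here every complete coding transcript held it. Counts per gene add all transcripts together. Capitals mark the codons of the 3 zinc-binding histidines, of the catalytic glutamate and of the residue at the eighth place of the motif. Each stretch of 63 bases crosses an exon boundary, so that the coordinates include an intron.
Adamts2 (chr11:50775388-50776149, plus strand): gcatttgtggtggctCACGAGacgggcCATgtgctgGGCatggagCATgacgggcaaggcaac
Adamts5 (chr16:85878000-85887841, minus strand): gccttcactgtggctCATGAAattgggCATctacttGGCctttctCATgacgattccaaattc
Adamts10 (chr17:33538142-33538294, plus strand): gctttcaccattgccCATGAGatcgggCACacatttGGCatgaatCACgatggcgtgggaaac
Adamts12 (chr15:11241514-11255579, plus strand): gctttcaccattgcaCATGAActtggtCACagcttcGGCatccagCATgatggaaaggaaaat
Adamts1 (chr16:85799176-85799560, minus strand): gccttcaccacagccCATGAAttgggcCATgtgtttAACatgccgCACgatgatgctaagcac
Adamts4 (chr1:171253195-171253930, plus strand): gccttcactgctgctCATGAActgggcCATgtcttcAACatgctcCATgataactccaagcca
Adamts9 (chr6:92905270-92908508, minus strand): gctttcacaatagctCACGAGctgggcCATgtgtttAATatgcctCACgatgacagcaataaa
The eighth place is a glycine codon in Adamts2, Adamts5, Adamts10 and Adamts12 and an asparagine codon in Adamts1, Adamts4 and Adamts9. Adamts1 shared 47 of the 63 bases with Adamts4 and likewise 47 with Adamts9, and Adamts10 shared 46 with Adamts12. Adamts2 was the most distant, with 31 to 36 bases shared with any other gene.

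The substrate site matters for the reading of Vcan counts, because versican is made in splice forms that do not all carry it. The stretch below holds the codons of the glutamate-alanine bond that ADAMTS proteases cut in versican. Capitals mark the 6 codons before the cut bond, which lies between the last capital codon (glutamate) and the alanine codon gct that follows it.
Vcan (chr13:89693206-89693253, minus strand): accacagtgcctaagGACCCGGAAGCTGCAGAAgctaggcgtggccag
The site was present in 2 of 5 complete coding transcripts of Vcan, those with 3354 and 2394 codons. The transcripts with 1615, 655 and 368 codons lacked it. Counts per gene add all of these forms together, so that the values below do not tell how much of the Vcan RNA encoded the site.

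The total count per TIC sample was 8114933 to 9100552 and that per sample of the other group 6781239 to 8450038, depths at which 3 counts correspond to 0.33 to 0.442 CPM (counts scaled to the library total). The filter on low values (over 1 CPM in 3 or more samples) left 12192 genes to test. Expression is given as CPM normalized by TMM, edgeR's trimmed mean of M-values. Groups were compared with edgeR's exactTest, which the study also used, and a gene was called at an adjusted p below 0.1 (Benjamini-Hochberg, over all tested genes). In 3 samples against 3, an exact permutation test of 1 gene cannot give a p below 0.1. All samples were bulk RNA, in which fewer cells of a type and less RNA per cell cannot be told apart. Cells of the epithelium were represented in every sample, with 8454 to 13563 counts of Epcam, an epithelial adhesion gene. Thy1, the gene of CD90, had a log2 fold change of 1.25 (SE 0.50, adjusted p = 0.35). Cd24a, the gene of CD24, had a log2 fold change of -0.34 (SE 0.30, adjusted p = 0.985). Ptprc, the gene of CD45, was at 0 in 5 samples and had 33 counts in the other, a sample outside the TIC gate.

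Adamts2 and Adamts5 were higher in TICs, and the other 6 genes did not pass the test. Of 12192 tested genes 1.36% were called higher in TICs and 1.55% in either direction, beside 2 of the 7 tested genes described here. Adamts12 was below the filter and was not tested. All 7 tested genes had a positive log2 fold change, from 0.37 for Vcan to 1.69 for Adamts2, with a median of 1.28 against -0.006 over all tested genes. Every TIC sample lay above every other sample in 2 of the 7 genes, which was the case for 7.69% of all tested genes, and below in 0 of 7, beside 7.55%. An unadjusted p below 0.05 with the higher level in TICs was found for 4 of the 7 genes, Adamts1, Adamts2, Adamts4 and Adamts5, and for 4.74% of all tested genes.

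**Figure D1:**
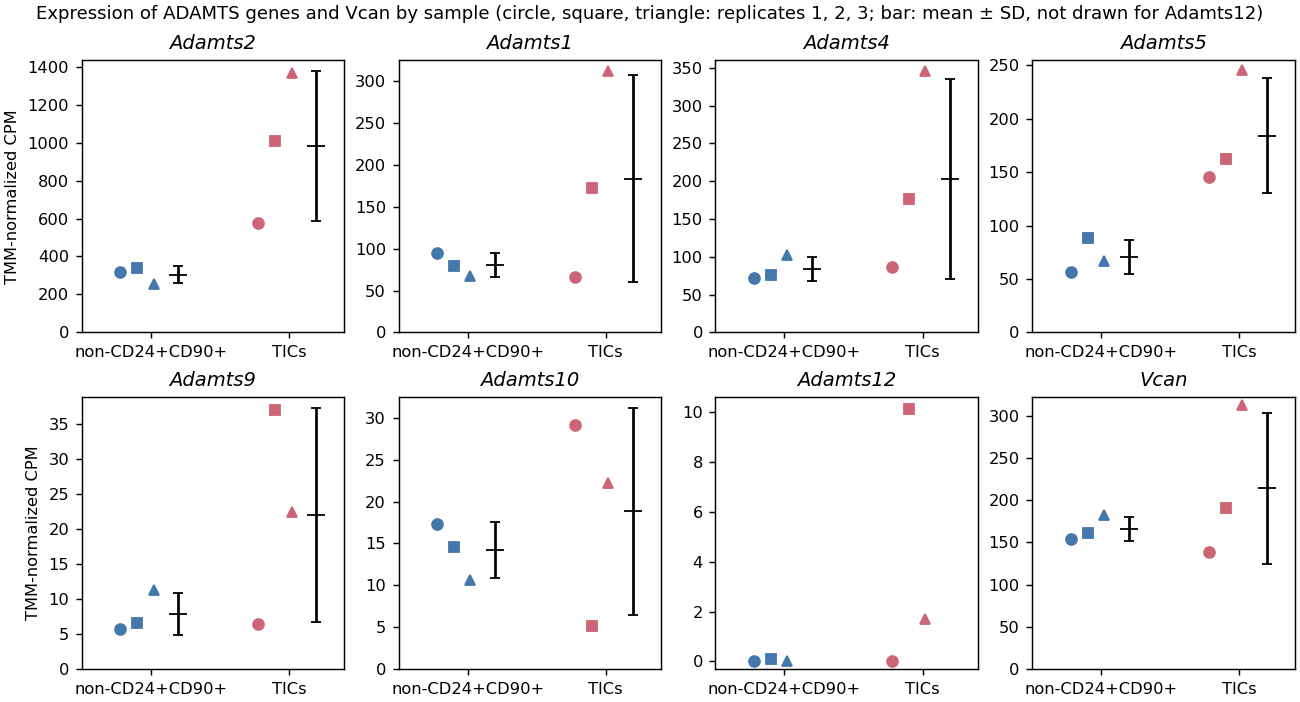
TMM-normalized CPM (vertical axis, linear) of the 8 genes in 3 TIC samples (red) and 3 non-CD24+CD90+ samples (blue), with the mean and SD beside each group except for Adamts12. Adamts2 and Adamts5 show separate groups, whereas for the other 6 genes at least 1 TIC sample falls within or below the range of the other group.

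Adamts2 (ENSMUSG00000036545, chr11:50602084-50807573, plus strand) was the most abundant ADAMTS gene of the 7. It had 2183, 3000 and 1795 counts in the other tumor cells replicates 1 to 3 and 5263, 8676 and 10397 counts in TICs. After normalization these were 317, 339 and 256 CPM against 576, 1007 and 1366 CPM. The lowest TIC sample was thus well above the highest other sample, while TICs spread 2.37-fold among themselves and the other samples 1.33-fold. TICs averaged 983 ± 396 CPM and the other samples 304 ± 43.2 CPM (SD, n = 3). The log2 fold change was 1.69 (SE 0.33, 95% interval 1.04 to 2.35, adjusted p = 0.000571 in edgeR's exactTest), and it ranked 17 by p among all tested genes. The quasi-likelihood test of edgeR, with 0.402% of genes called higher, also called it (adjusted p = 0.0538), as did DESeq2, with 1.95% called higher (adjusted p = 4.22e-07).

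Adamts5 (ENSMUSG00000022894, chr16:85856173-85901828, minus strand), the gene of aggrecanase-2, had 389, 780 and 471 counts in the other tumor cells and 1327, 1397 and 1868 counts in TICs. This corresponded to 56.6, 88.2 and 67.1 CPM against 145, 162 and 245 CPM. The groups did not overlap, and the spread within TICs, 1.69-fold, was the smallest of the 6 tested ADAMTS genes. The log2 fold change was 1.38 (SE 0.34, 95% interval 0.71 to 2.05, adjusted p = 0.0133 in edgeR's exactTest). The quasi-likelihood test did not call Adamts5 (adjusted p = 0.125). Leaving out replicate 1 or 3 of non-CD24+CD90+ tumor cells or replicate 3 of TICs also lost the call, with adjusted p-values of 0.189, 0.16 and 0.101.

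Adamts1 (ENSMUSG00000022893, chr16:85793827-85803113, minus strand) is the neighbour of Adamts5, 53.1 kb away, with no coding gene between them. Its counts were 656, 706 and 469 in non-CD24+CD90+ tumor cells and 600, 1489 and 2380 in TICs, or 95.4, 79.8 and 66.8 CPM against 65.7, 173 and 313 CPM. TIC replicate 1 had the lowest value of all 6 samples and replicate 3 the highest, so that the groups overlapped. The log2 fold change of 1.19 (SE 0.45) did not pass the test (adjusted p = 0.301), and the samples of TICs differed 4.76-fold among themselves.

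Adamts4 (ENSMUSG00000006403, chr1:171250421-171260637, plus strand), the gene of aggrecanase-1, followed the same order of samples within TICs. It had 498, 673 and 715 counts in the other tumor cells and 790, 1520 and 2636 counts in TICs, or 72.4, 76.1 and 102 CPM against 86.5, 176 and 346 CPM. TIC replicate 1 lay inside the range of the other group and the remaining TIC samples above it. The log2 fold change was 1.28 (SE 0.43, adjusted p = 0.16). DESeq2, with 2.58% of genes called, put it just below the threshold (adjusted p = 0.0957), and the quasi-likelihood test did not (adjusted p = 0.342).

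In Adamts1 and Adamts4 the outcome depended on which TIC sample was kept. Without TIC replicate 1 both genes were called, with log2 fold changes of 1.60 for Adamts1 and 1.66 for Adamts4 (adjusted p = 0.00281 and 0.00248 in edgeR's exactTest). Without TIC replicate 3 the values dropped to 0.59 and 0.68 (adjusted p = 0.899 and 0.779). Across the 6 samples the log2 CPM of Adamts1 and Adamts4 had a Pearson r of 0.921. That of the neighbours Adamts1 and Adamts5 was 0.728. The 6 points share their libraries, and these coefficients are a description.

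Adamts9 (ENSMUSG00000030022, chr6:92772699-92943492, minus strand), the gene of another protease that cuts versican, was present at low levels. Its counts were 39, 58 and 79 in non-CD24+CD90+ tumor cells and 59, 319 and 171 in TICs, which gave 5.67, 6.56 and 11.3 CPM against 6.46, 37 and 22.5 CPM. Here TIC replicate 2 was the highest sample and TIC replicate 1 again lay within the other group. The log2 fold change of 1.49 exceeded that of Adamts5, but its error was far larger (SE 0.94, adjusted p = 0.886), and without TIC replicate 2 it was 0.88.

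Adamts10 (ENSMUSG00000024299, chr17:33524204-33553782, plus strand), whose protein works with fibrillin microfibrils, did not differ detectably between the groups. Its counts were 119, 129 and 75 in non-CD24+CD90+ tumor cells and 267, 44 and 169 in TICs, equal to 17.3, 14.6 and 10.7 CPM against 29.2, 5.11 and 22.2 CPM. TICs held both the highest and the lowest sample. The log2 fold change was 0.41 with a 95% interval from -1.33 to 2.15 (adjusted p = 1), and without TIC replicate 1 it was -0.05.

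Adamts12 (ENSMUSG00000047497, chr15:11064790-11349231, plus strand), the gene of a protease known to cut cartilage oligomeric matrix protein, was at or near 0 in 4 of 6 samples. It had 0, 1 and 0 counts in the other tumor cells and 0, 87 and 13 counts in TICs. The counts in TICs came from replicates 2 and 3, and replicate 1 had none. Tested without a filter on low counts, it had an adjusted p of 1.

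Vcan (ENSMUSG00000021614, chr13:89655312-89742509, minus strand) had 1060, 1423 and 1280 counts in the other tumor cells and 1264, 1640 and 2383 counts in TICs. Normalized, this was 154, 161 and 182 CPM against 138, 190 and 313 CPM. The lowest TIC sample was below all samples of the other group and the highest well above them. The means were 214 ± 89.8 CPM and 166 ± 14.8 CPM (SD, n = 3), and the log2 fold change was 0.37 (SE 0.34, adjusted p = 0.996). The 95% interval ran from -0.30 to 1.04, which includes 0 and reaches further towards higher than towards lower levels in TICs. Without TIC replicate 3 the log2 fold change was 0.008. An intron of Vcan overlaps the antisense gene Gm4117, which had 801 counts over all samples.

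**Figure D2:**
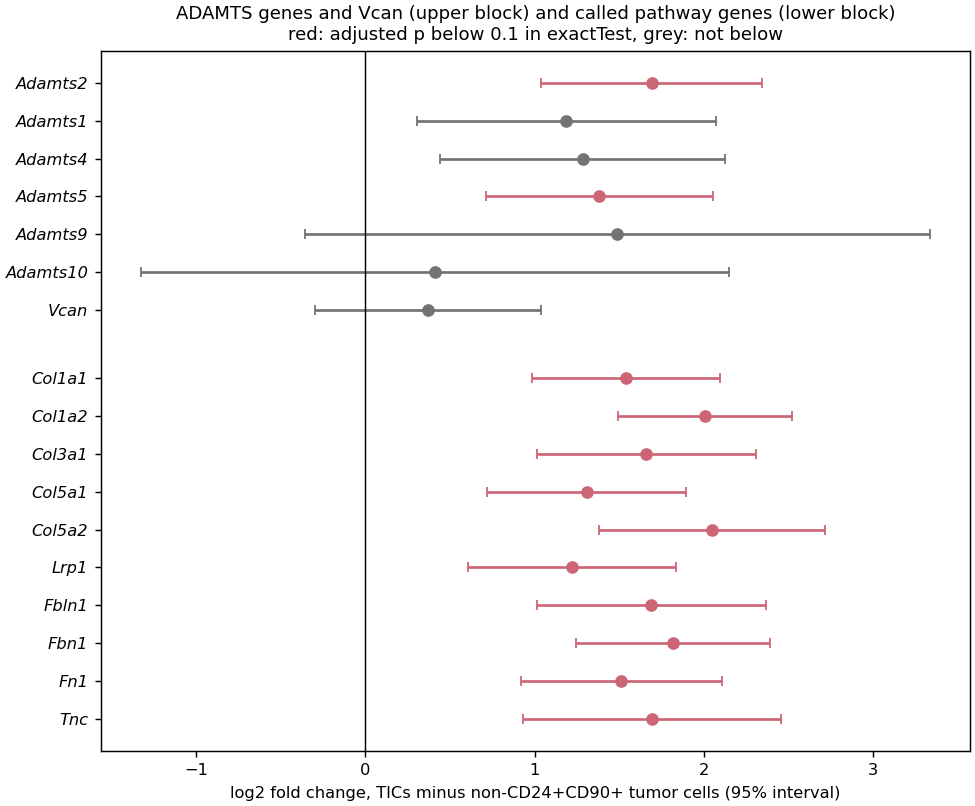
Log2 fold change (horizontal axis, TICs minus non-CD24+CD90+ tumor cells) with its 95% interval for the 7 tested genes in the upper block and for the 10 called genes of the pathway lists in the lower block. Adamts2 and Adamts5 are marked as called, Adamts9 and Adamts10 have the widest intervals, and the interval of Vcan, from -0.30 to 1.04, spans 0.

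Levels of different genes were compared per kilobase of exon. In non-CD24+CD90+ tumor cells the order was Adamts2 with 32.6 ± 4.63 CPM per kb, Adamts4 with 17.4 ± 3.34, Adamts1 with 15.2 ± 2.70, Vcan with 11.5 ± 1.02 and Adamts5 with 6.55 ± 1.49 CPM per kb (SD, n = 3). Below these lay Adamts10 with 1.72 ± 0.403 and Adamts9 with 0.520 ± 0.200 CPM per kb. The samples of Adamts4 and Adamts1 overlapped, as did those of Adamts1 and Vcan, whereas the other neighbours in this order were separate. In TICs the order was the same except that Adamts5, at 17.1 ± 4.97 CPM per kb, stood before Vcan at 14.8 ± 6.21 CPM per kb. Adamts2 led there with 105 ± 42.4 CPM per kb, followed by Adamts4 with 42.2 ± 27.4 and Adamts1 with 34.7 ± 23.4. In TICs neighbours in the order overlapped, apart from Vcan and Adamts10.

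Reads of the ADAMTS genes and of Vcan were then compared as ratios within each library, where a ratio of reads does not depend on the normalization between samples. These 8 ratios were chosen after the values had been seen. Adamts2 and Adamts10 are not among the genes named above as cutting hyalectans. Their ratios to Vcan therefore do not set a protease against its own substrate. For every 100 Vcan reads, non-CD24+CD90+ tumor cells had 206, 211 and 140 Adamts2 reads and TICs had 416, 529 and 436. All TIC samples were above the other group, and the difference in the mean log2 ratio was 1.33. For Adamts5 the ratios were 36.7, 54.8 and 36.8 against 105, 85.2 and 78.4 reads per 100 Vcan reads, a log2 difference of 1.08. For Adamts4 they were 47, 47.3 and 55.9 against 62.5, 92.7 and 111, a log2 difference of 0.79, and here too the groups were separate. Against Vcan, 4.25% of all tested genes had every TIC sample above every other sample. The ratios of Adamts1, Adamts9 and Adamts10 to Vcan overlapped between the groups.

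Adamts2 was also set against its own substrates, the summed reads of the procollagen genes Col1a1, Col1a2 and Col3a1. Non-CD24+CD90+ tumor cells had 12.9, 15.9 and 10.1 Adamts2 reads per 100 procollagen reads, and TICs had 8.95, 12.4 and 16.1. These ranges overlapped almost entirely, with a log2 difference of -0.07 (exact permutation test, two-sided, p = 0.8). Vcan stood at 6.25, 7.53 and 7.21 reads per 100 procollagen reads in non-CD24+CD90+ tumor cells and at 2.15, 2.35 and 3.7 in TICs, with every TIC sample lower. Col1a1, Col1a2 and Col3a1 were themselves called higher in TICs, with log2 fold changes of 1.54, 2.01 and 1.66. A gene at an unchanged level therefore also has a lower ratio to procollagen in TICs. The share of all tested genes with such a lower ratio was not computed. For Adamts2, Adamts4 and Adamts5 against Vcan and for Vcan against procollagen, the two-sided exact permutation test gave p = 0.1, the smallest that 3 samples against 3 allow, or 0.2 when adjusted over the 8 ratios. The ratios share their denominators and are not independent of each other.

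**Figure D3:**
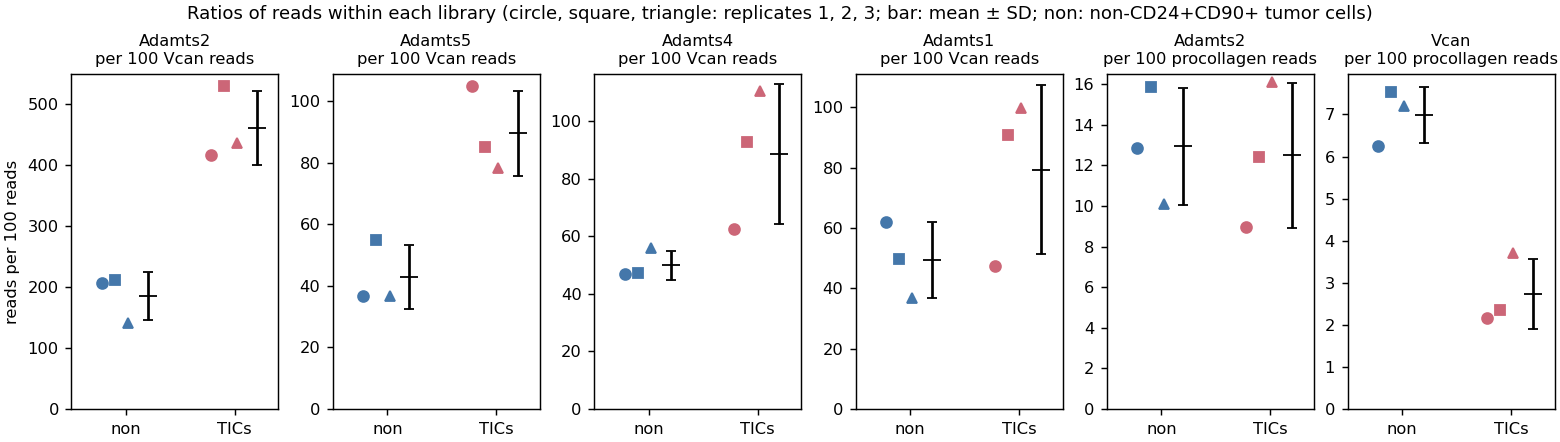
Reads of the first gene per 100 reads of the second gene or gene group (vertical axis, linear from 0) in each library, for non-CD24+CD90+ tumor cells (blue, marked non) and TICs (red), with mean and SD. The ratios of Adamts2, Adamts5 and Adamts4 to Vcan separate the groups, the ratio of Adamts2 to procollagen ranges from 8.95 to 16.1 in TICs and from 10.1 to 15.9 in the other group, and that of Vcan to procollagen is lower in all TICs.

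In the whole ADAMTS family, 19 genes were listed and 14 passed the filter on low counts, of which Adamts2 and Adamts5 were called. The other 12 listed ADAMTS genes outside the 7 were mostly sparse, and none was called (edgeR's exactTest). The procollagen N-proteinases related to Adamts2 were among them. Adamts3 had 119, 98 and 166 counts in the other tumor cells and 181, 1 and 249 in TICs, so that a sample of the same group missed a gene seen with over 100 counts in the others. Adamts14 had 0, 17 and 0 counts against 8, 19 and 12 counts. Among the remaining hyalectan-cutting proteases, Adamts8 had 21, 1 and 38 counts against 2, 77 and 94 (log2 fold change 1.32, SE 1.71). Adamts15 was less sparse, with 102, 262 and 164 counts against 558, 397 and 94 (log2 fold change 0.82, SE 0.66). Adamts7, whose protein is linked to cartilage oligomeric matrix protein, had 42, 72 and 1 counts against 12, 6 and 0 (log2 fold change -2.81, SE 1.88). Adamts13, the gene of the protease of von Willebrand factor, had no count in any sample. Of 7 ADAMTS-like genes, which lack the protease domain, 6 were tested and 0 were called, and the one with the largest log2 fold change was Adamtsl1 (1.66, SE 0.75, adjusted p = 0.541).

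Genes that work with these proteases were examined in lists that held 71 genes in all. Of these, 54 were tested, 10 were called higher in TICs and 0 were called lower, against 1.36% and 0.189% of all tested genes. The median log2 fold change of the 54 genes was 0.92 (-0.006 over all tested genes). The fibrillar procollagens held 5 of the 10, namely Col1a1, Col1a2, Col3a1, Col5a1 and Col5a2, with log2 fold changes from 1.31 to 2.05. Col2a1, the cartilage collagen, was the only procollagen of the list not called, with 11.5 ± 7.35 CPM in TICs against 23.1 ± 6.21 CPM (SD, n = 3). The matrix partners of versican and of the ADAMTS proteases held another 4. Fbln1, the gene of fibulin-1 and a cofactor of ADAMTS1, reached 140 ± 26.1 CPM in TICs against 43.3 ± 3.76 CPM (log2 fold change 1.69, SE 0.34, adjusted p = 0.00091). Fbn1, the gene of fibrillin-1, Fn1, the gene of fibronectin, and Tnc, the gene of tenascin-C, had log2 fold changes of 1.82, 1.51 and 1.69. Fbln2, another fibulin that binds versican, had 432 ± 44.1 CPM against 240 ± 63.1 CPM and was not called (adjusted p = 0.202).

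Lrp1 encodes the endocytic receptor that removes ADAMTS proteases from the cell surroundings. It had 987, 1636 and 1827 counts in the other tumor cells and 3997, 3303 and 4198 in TICs, with a log2 fold change of 1.22 (SE 0.31, adjusted p = 0.021). The proprotein convertases, which cut off the ADAMTS propeptide, were not called. Furin had a log2 fold change of -0.65 (SE 0.31, adjusted p = 0.56) and Pcsk5 of 1.05 (SE 0.42, adjusted p = 0.35). Of the TIMPs, inhibitors of metalloproteases, 3 of 4 were tested and 0 were called. Timp3, whose protein is the main TIMP against aggrecanases, had 73.6 ± 39.7 CPM in TICs against 64.2 ± 18 CPM (SD, n = 3), a log2 fold change of 0.20. Timp1 had the largest value among them, 1.41 (SE 0.60, adjusted p = 0.456).

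Versican's binding partner hyaluronan is made by the Has enzymes and cross-linked by link proteins. None of the 9 genes of this list was called, and 4 were tested. Has1 had 31.2 ± 6.27 CPM in TICs against 17.2 ± 3.17 CPM, and Tnfaip6, the gene of a hyaluronan-binding protein, 48.2 ± 8.20 against 22.5 ± 14.9 CPM (SD, n = 3). In both genes every TIC sample was higher, as in 7.69% of all tested genes, and neither passed edgeR's exactTest (adjusted p = 0.952 and 0.787). Cd44, the gene of the hyaluronan receptor, was lower in every TIC sample, 233 ± 35.3 against 352 ± 19.2 CPM, and did not pass either (adjusted p = 0.564). Every TIC sample was lower in 7.55% of all tested genes. Of 12 genes that build chondroitin sulfate chains, 11 were tested and 0 were called. The largest log2 fold change among them was that of Xylt1, which rested on 0, 15 and 0 counts against 38, 85 and 0 (adjusted p = 0.99). The other hyalectans Acan, Bcan and Ncan had at most 22 counts in any sample, so that Vcan was the only hyalectan gene tested. Among 6 further substrates, 5 were tested and 0 were called. Reln, the gene of reelin, which ADAMTS2 and ADAMTS3 inactivate, had 0 counts in all non-CD24+CD90+ tumor cells and 16, 11 and 136 counts in TICs. It did not pass the test (adjusted p = 0.164), and most of its counts came from TIC replicate 3.

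The summed markers of several cell types differed between the groups, whereas those of basal epithelium and of leukocytes overlapped. For a list of 8 fibroblast genes, 7 were tested and 4 were called higher in TICs, and its summed level was 831 to 870 CPM in the other tumor cells and 1392 to 2691 CPM in TICs. The defining fibroblast gene Pdgfra was detected in every sample, with 292 to 386 counts against 447 to 725, or 42.5 to 51.3 CPM against 58.7 to 84.2 CPM. It was not called (log2 fold change 0.65, SE 0.41, adjusted p = 0.854 in edgeR's exactTest), and neither were Lum and Fap. For 9 pericyte or smooth muscle genes, 9 were tested and 1 was called, and the sum was 538 to 663 CPM against 946 to 1446 CPM. The called gene was Rgs5, which averaged 242 CPM in the other tumor cells and 662 CPM in TICs and made up much of that difference. Of 8 endothelial genes, 8 were tested and 0 called, and none had every TIC sample above every other sample. Kdr alone reached 176 CPM in TIC replicate 3, against 22.1 to 32.6 CPM in the other samples. The endothelial sum was 130, 132 and 129 CPM in the other tumor cells and 153, 245 and 575 CPM in TIC replicates 1 to 3. Replicate 1 was likewise the lowest TIC sample and replicate 3 the highest for 5 of the 7 tested genes, Adamts1, Adamts2, Adamts4, Adamts5 and Vcan. The order was not particular to the endothelial sum. It also held for the sums of fibroblast (1392, 2658 and 2691 CPM), pericyte or smooth muscle (946, 1284 and 1446 CPM) and adipocyte genes. Luminal epithelial and leukocyte sums ran in the reverse order, and the basal epithelial sum was lowest in replicate 2. The share of all tested genes with this order was not computed. Luminal epithelial genes, 8 tested and 0 called, summed to 5698 to 6005 CPM against 3765 to 4347 CPM. Basal epithelial genes, 6 tested and 0 called, summed to 795 to 1318 CPM against 635 to 1030 CPM.

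Leukocyte genes, 3 of 8 tested and 1 called higher, summed to 16.7 to 35.5 CPM against 31.9 to 89.7 CPM. The called gene was Lyz2, the lysozyme gene of macrophages and granulocytes, with 66, 104 and 30 counts in the other tumor cells and 564, 646 and 212 in TICs (log2 fold change 2.68, SE 0.63, adjusted p = 0.0125 in edgeR's exactTest). The remaining tested genes of this list, Cd68 and Csf1r, went the other way and were not called. Their log2 fold changes were -0.31 (SE 1.18) and -1.68 (SE 2.26). Itgam, an integrin gene of myeloid cells, had 63 and 4 counts in TIC replicates 1 and 2 and 0 in the other 4 samples, while Ptprc, Cd3e and Adgre1 were at 0 in every TIC sample. The adipocyte list, 1 of 5 tested and 1 called, summed to 56.3 to 136 CPM against 191 to 1220 CPM. Its counts came almost entirely from Fabp4, which endothelial cells also express, and the defining adipocyte gene Adipoq was at 0 in all samples. Adamts2 amounted to 36.5%, 40.8% and 30.7% of the fibroblast sum in non-CD24+CD90+ tumor cells and to 41.4%, 37.9% and 50.8% in TICs, ranges that overlap. Vcan amounted to 17.7%, 19.4% and 21.9% against 9.94%, 7.16% and 11.6%, with every TIC sample lower. The shares of the other ADAMTS genes overlapped between the groups. Most of the fibroblast sum came from Dcn, itself called higher, with a mean of 1438 CPM in TICs against 515 CPM. A sum that is higher in TICs lowers the share of any gene at an unchanged level, and the proportion of all genes affected was not computed. The part of these other cell types in the values of the ADAMTS genes was not tested.

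For the called genes, the 5 tested genes with the most similar profile over the 6 samples were listed by the Pearson r of log2 CPM. For Adamts2 these were Mlh3 (0.996), Cd36 (0.995), Dnajc3 (0.991), Cxcl14 (0.990) and Ablim1 (0.988). Cd36, the gene of a fatty acid transporter, Cxcl14, a chemokine gene, and Ablim1, the gene of an actin-binding protein, were themselves called higher in TICs, with log2 fold changes of 2.80, 1.40 and 1.58. For Adamts5 they were Cep170 (0.997), Ccdc189 (0.990), Tmeff2 (0.989), Cavin3 (0.988) and Pum3 (0.985), of which Cep170 was called. Over all tested genes 1.36% were called higher in TICs. Genes picked for a profile like that of a called gene tend to differ in the same way, so that their calls are not independent. Adamts2 and Adamts5 had an r of 0.952 with each other. Vcan was closer to Adamts4 (0.935) and Adamts1 (0.884) than to Adamts2 (0.674) or Adamts5 (0.630), and the r of Adamts10 with the other genes lay between -0.616 and 0.099. With 6 samples many of 12192 genes reach a high r, and these values only describe the profiles.

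The 250 bases before the transcription start are shown for Adamts2, which was called, and for Adamts1, which was not, from RefSeq on GRCm38.p6. Capitals mark TATAAA and the GC box GGGCGG on either strand.
Adamts2 (chr11:50601835-50602084, plus strand): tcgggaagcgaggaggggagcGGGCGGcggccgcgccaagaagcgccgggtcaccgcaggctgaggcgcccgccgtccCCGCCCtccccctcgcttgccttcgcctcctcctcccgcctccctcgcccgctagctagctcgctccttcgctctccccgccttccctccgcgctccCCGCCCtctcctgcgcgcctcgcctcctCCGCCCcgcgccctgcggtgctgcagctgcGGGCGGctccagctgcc
Adamts1 (chr16:85803114-85803363, minus strand): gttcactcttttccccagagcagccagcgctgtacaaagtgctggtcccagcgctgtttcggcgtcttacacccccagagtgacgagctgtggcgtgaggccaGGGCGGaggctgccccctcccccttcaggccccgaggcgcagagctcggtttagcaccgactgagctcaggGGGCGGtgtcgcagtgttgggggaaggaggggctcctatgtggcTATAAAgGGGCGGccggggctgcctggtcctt
Adamts2 held 5 GC boxes and no TATAAA in 78.0% GC. Adamts1 held 3 GC boxes and 1 TATAAA, whose first base lay at -32 from the start, in 65.6% GC. Of 27025 promoters 32.9% held a GC box and 13.0% TATAAA, and the median GC content was 52.0%. Promoters of 5 of the 8 genes were matched, and those of Vcan, Adamts9 and Adamts12 held 2, 1 and 0 GC boxes and no TATAAA. A match describes the letters of this window and says nothing about which factor binds there.

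The dependence of each fold change on the samples and settings was traced for the 7 tested genes. With each of the 6 samples left out in turn, Adamts2 was always called, with log2 fold changes from 1.40 to 1.98, and under all 8 other settings. Adamts5 was called in 3 of 6 and in 7 of 8. Adamts4 was called in 1 of 6 and 3 of 8, Adamts1 in 1 of 6 and 1 of 8, and Adamts9, Adamts10 and Vcan in 0 of 6 and 0 of 8.

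**Figure D4:**
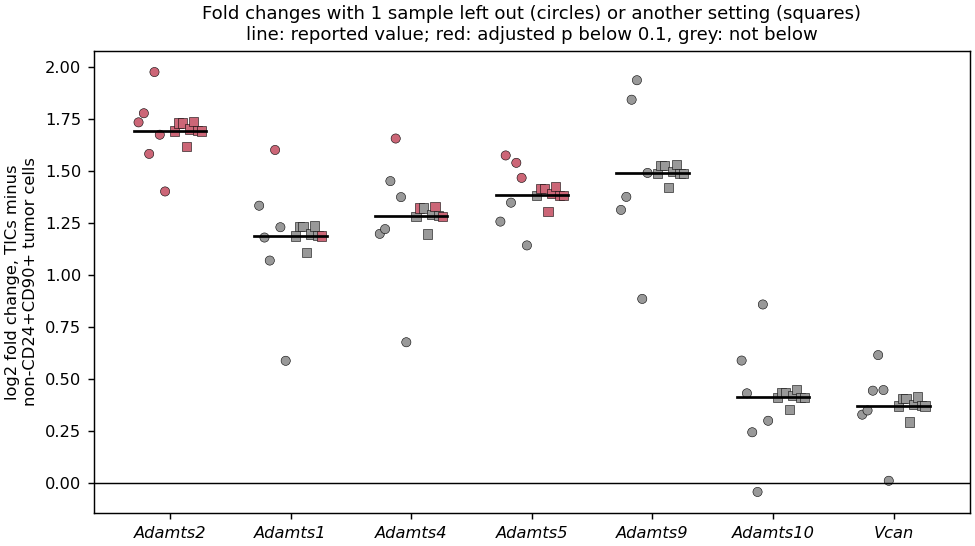
Log2 fold change (vertical axis) of the 7 tested genes with 1 of the 6 samples left out (circles) or under 1 of 8 other settings (squares), with the reported value as a line and called values in red. Adamts2 is red throughout, between 1.40 and 1.98, whereas circles of Adamts1 and Adamts4 spread widely below and above the line.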

How the data were processed

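Sorted cells were profiled by RNA-seq in 3 samples per group. The authors used Trimmomatic 0.32 for trimming, STAR 2.4.0 for alignment (GRCm38), SAMtools 1.1 to drop multiply mapped reads and HTSeq to count reads per gene. The authors deposited these raw counts per Ensembl gene, and the annotation release and strand setting are not given in the sources used here. Groups follow the sample descriptions, and replicate numbers follow sample order.

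From the counts on, edgeR 4.0.16 in R 4.3.3 was used. Genes above 1 CPM in 3 or more samples were kept; the study filtered on CPM without giving its threshold. Counts were normalized by TMM and compared with exactTest, with p-values adjusted by Benjamini and Hochberg over all tested genes (threshold 0.1). Standard errors came from the negative binomial fit with tagwise dispersions, and 95% intervals are normal intervals from them. Log2 CPM for correlations used a prior count of 2. Symbols, exon lengths and coordinates came from GENCODE M21 (GRCm38), which named 40254 of 41388 genes, and promoters from RefSeq. Genes, lists and tests were chosen with earlier results of these data known. Besides the 8 genes, those named are the called genes of the lists, the largest change among those not called in each list, the sorting markers and the 5 most similar profiles. Further genes (Adamts3, Adamts13, Adamts15, Adamts18, Furin, Timp3, Has1, Cd44, the other hyalectans and the markers named) were chosen after their values were seen. Alternatives were the quasi-likelihood test, DESeq2 1.42.0, RLE or library size scaling, 3 other filters, trended dispersions, a threshold of 0.05 and each sample left out. The scripts were tested on simulated counts. P-values measure the spread between pooled samples, and the floor of 3 counts covers counting error only.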

Additional observations from a re-analysis of the deposited data

How the results depend on the processing

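Of the 8 genes, 2 were called, 1 with the quasi-likelihood test, 4 with trended dispersions and 1 to 4 with a sample left out. The count fell to 1 without replicate 1 or 3 of non-CD24+CD90+ tumor cells or replicate 3 of TICs and rose to 4 without TIC replicate 1. The 10 called genes of the pathway lists became 8 to 12 under all alternatives. Over all genes, 189 were called, 50 with the quasi-likelihood test, 306 with DESeq2, 112 without a filter, and 68 to 314 with a sample left out. DESeq2 put 231 higher and 75 lower, beside 166 and 23. Among the fold changes of the 7 tested genes only that of Adamts10 changed sign, to -0.045 without TIC replicate 1, and its range with samples left out ran up to 0.86. The causes were not tested. With a sample left out, the log2 difference ran from 1.14 to 1.43 for Adamts2 per Vcan, 0.96 to 1.27 for Adamts5, 0.61 to 1.02 for Adamts4, 0.44 to 0.98 for Adamts1, 0.36 to 1.39 for Adamts9 and -0.95 to 0.54 for Adamts10, and per procollagen from -0.27 to 0.15 for Adamts2 and -1.63 to -1.24 for Vcan, so that Adamts10 per Vcan and Adamts2 per procollagen changed sign. No paired analysis was possible because the sample labels give the groups no shared replicate numbers. Adamts12 had at most 1 count in 4 of the 6 samples, fewer than the floor of 3 counts. TIC replicate 1, with 0 counts of Adamts12, had the largest library of all samples (total count 9100552).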
